A study of Homo sapiens with 6 samples.

Results

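Target genes of the transcription factor p53 were examined in pancreatic ductal adenocarcinoma (PDAC) cells exposed to antagonists of retinoic acid receptor γ (RARγ). The group held 10 genes, MDM2 (Entrez gene 4193), CCNG1 (900), FAS (355), TP53I3 (9540), GDF15 (9518), BTG2 (7832), ZMAT3 (64393), SESN1 (27244), GADD45A (1647) and FDXR (2232), found by gene symbol among the 53826 entries of each library. CDKN1A, the best known p53 target, was left out of the group and is given for reference only. RNA from PK-1 and Panc-1, established human PDAC cell lines, was sequenced from control cells and after 24 h of either inhibitor, LY2955303 (RARγi-1) or MM11253 (RARγi-2). Each of the 6 conditions had 1 library. The titles name the inhibitors, but the treatment entry of both RARγi-2 libraries reads RARγi-1, so these libraries were assigned by title and each inhibitor is reported separately. The doses used for the RNA-seq and the vehicle of the controls are not stated in the sources used here.

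p53 is a DNA-binding transcription factor that is stabilized by DNA damage and other stress. It switches on genes that stop the cell cycle, promote cell death, repair DNA and adjust metabolism. Its target MDM2 encodes the ubiquitin ligase that marks p53 for degradation, which closes a feedback loop. Several p53 targets also answer to other factors. GADD45A and GDF15, for example, are induced by ATF4 and CHOP (encoded by DDIT3) during the unfolded protein response without a need for p53.

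p53 binds a pair of 10-base half-sites. The RefSeq promoter windows of GRCh38.p14, each with 250 bases before and 50 after a transcription start, were searched for 2 half-sites of the p53 consensus with no more than 13 bases between them, at most 2 mismatches in all, and the core C and G kept in each; the motif reads the same on both strands. Windows were found for 9 of the 10 genes, GADD45A being the exception, and MDM2, FAS and FDXR held a match, in 4 of the 19 windows of these genes, against 2.93% of all 34943 windows. Windows of the same gene can overlap and share a match, and the genes were chosen as p53 targets, so no excess is read from these shares. The matches are shown as examples of the p53 consensus, and each holds 2 mismatches, the most allowed. Half-sites are in capitals.

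MDM2, chr12:68808883-68808982, plus strand, intronic: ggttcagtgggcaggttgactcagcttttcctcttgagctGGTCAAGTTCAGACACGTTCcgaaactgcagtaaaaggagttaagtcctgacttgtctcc
FAS, chr10:88991309-88991328, plus strand: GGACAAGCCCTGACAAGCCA
FDXR, chr17:74872996-74873025, minus strand: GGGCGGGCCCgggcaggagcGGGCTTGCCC

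The MDM2 match lay outside every exon of the gene in GENCODE 29 and began 94 bases before an internal transcription start. The FAS and FDXR matches overlapped an annotated exon, outside the coding sequence. In FAS a second pair of half-sites overlapped the pair shown. A match describes these letters only, and no binding was measured.

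Values are TPM, transcript abundances scaled to a common total, in which anything under 1 TPM had been raised to that floor. Between 74.6% and 75.6% of entries per library lay at the floor. TPM is a share of the RNA of a library, and in these bulk samples fewer cells expressing a gene and less of its RNA per cell cannot be told apart. A fold change is log2 of (TPM + 1) in a treated library minus the same in the control of its cell line. There are no replicates and therefore no p-values. As a yardstick, the robust standard deviation of the log2 difference between both treated libraries of a line was taken, called the spread here. It covers genes with at least 5 TPM in some library of the line. A value past it is no test result. This spread came to 0.41 for PK-1 and 0.32 for Panc-1, on the log2 scale. Real differences between LY2955303 and MM11253 are part of it, and variation shared by the treated libraries is not. Rescaling by median ratios would lower values of PK-1 RARγi-1 by up to 0.14 (log2) and those of Panc-1 RARγi-1 by up to 0.08, less for genes near the floor. Of 7 ductal and epithelial markers, all were above the floor in PK-1 and all but CDH1 in Panc-1, where KRT7 was low. In each line 12 of 14 markers of acinar cells, fibroblasts, leukocytes and endothelium lay at the floor. The exceptions were CD68 and PRSS1 for PK-1, and CD68 and CD14 for Panc-1. The summed ductal and epithelial markers ranged from 13531 to 22538 TPM across PK-1 and from 1502 to 8481 TPM in Panc-1. KRT7, KRT8, KRT18, KRT19 and SOX9 were lower in both treated libraries of each line. KRT7 measured 5663 TPM in PK-1 control but only 4.19, 2.40 and 2.67 TPM in Panc-1 control, RARγi-1 and RARγi-2. CDH1 was higher after treatment in PK-1 (170.1, 270.2 and 385 TPM in control, RARγi-1 and RARγi-2), and EPCAM measured 578, 552 and 497 TPM in PK-1 and 13.4, 19.4 and 9.18 TPM in Panc-1 in that order. The other summed markers ranged from 20.9 to 106 TPM and from 239 to 277 TPM. The part of these shifts in the values below was not tested.

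The 10 genes did not move as a group. GADD45A was the only one more than 2-fold higher than control in all 4 comparisons. TP53I3 passed 2-fold with RARγi-2 in PK-1, and FAS was more than 2-fold lower there. MDM2, CCNG1, BTG2, ZMAT3, SESN1 and FDXR stayed within 2-fold in every comparison, and GDF15 was listed at the floor in all 6 libraries.

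In PK-1 treated with RARγi-1, 1 of the 9 genes above the floor was more than 2-fold higher and 0 were lower. The shares of all tested entries, meaning entries that left the floor in some library of that line, were 9.05% and 4.85%. With RARγi-2 in PK-1, 2 of the 9 were higher and 1 was lower, against 11.9% and 12.3% of all entries. In Panc-1, 1 of the 9 was higher and 0 were lower with each inhibitor. The shares of all entries were 7.30% higher and 5.96% lower with RARγi-1, and 8.34% and 11.0% with RARγi-2. Across all 4 comparisons, 2.63% of the 12799 entries above the floor in both lines were more than 2-fold higher throughout and 2.13% were lower throughout. With 9 genes these are counts of single genes, and nothing particular to the group is read from them.

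The median log2 fold change of the 9 genes was 0.36 (RARγi-1) and 0.45 (RARγi-2) for PK-1, where all tested entries had medians of 0.13 and 0.01. In Panc-1 it was 0.14 and 0.02, beside medians of 0.08 and -0.01 over all tested entries.

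**Figure D1:**
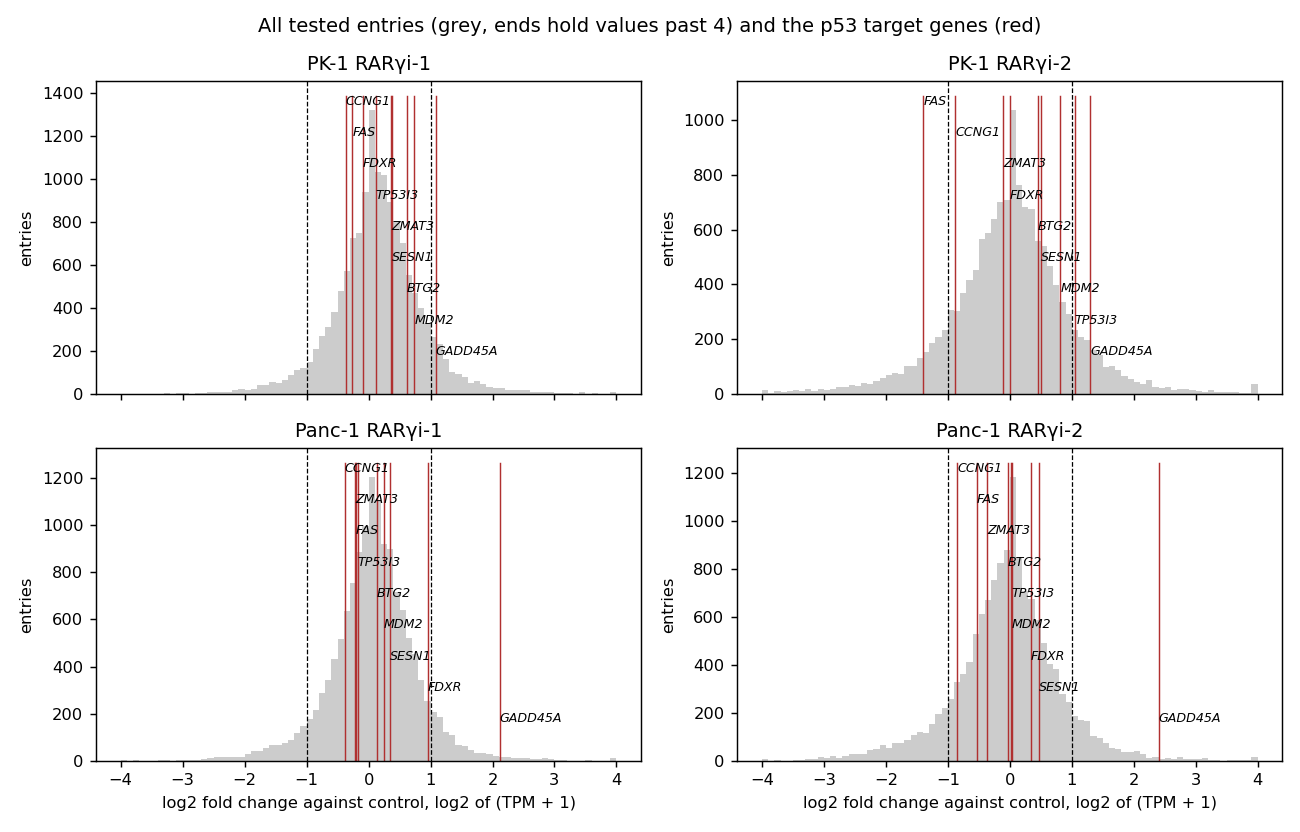
Histograms of the log2 fold change of all tested entries in each of the 4 comparisons (x axis, log2 of (TPM + 1) against control, y axis, number of entries), with red lines at the p53 target genes above the floor in that line and dashed lines at 2-fold. Most red lines fall in the middle of the distribution, and GADD45A is at 2.12 and 2.40 in Panc-1, far to the right.

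MDM2, the negative feedback gene, measured 28.5 TPM in PK-1 control, 48.3 TPM after RARγi-1 and 51.0 TPM after RARγi-2. The Panc-1 values were 22.6 TPM in control, 26.9 TPM after RARγi-1 and 23.1 TPM after RARγi-2. Both treated PK-1 libraries were above their control by more than the spread, with log2 fold changes of 0.74 and 0.82, whereas those of Panc-1, 0.24 and 0.03, were within it. MDM2 was thus below 2-fold throughout, and whether the lines differ was not tested.

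Of the genes linked to growth arrest, GADD45A had the largest change. GADD45A encodes a small nuclear protein that acts in cell cycle arrest, DNA repair and stress kinase signaling. It measured 99.6 TPM in PK-1 control, 212 TPM after RARγi-1 and 247 TPM after RARγi-2. In Panc-1 it measured 78.2 TPM in control, 342 TPM after RARγi-1 and 418 TPM after RARγi-2. Every treated library was above both controls, and those of Panc-1 were the highest of the 6. GADD45A rose 2.12-fold and 2.46-fold over the PK-1 control, and 4.33-fold and 5.29-fold over the Panc-1 control. The log2 fold changes of 1.08 and 1.30 in PK-1 exceeded those of 92.5% and 92.6% of tested entries, and those of 2.12 and 2.40 in Panc-1 exceeded 99.2% in each comparison. After rescaling by median ratios the value for PK-1 RARγi-1 was 0.94, just under 2-fold, so that no gene of the group then passed in all 4 comparisons.

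CCNG1, which encodes cyclin G1, a partner of a phosphatase that acts on MDM2, was lower in all 4 treated libraries. It measured 97.8 TPM in PK-1 control, 75.4 TPM after RARγi-1 and 52.8 TPM after RARγi-2. Panc-1 control held 55.9 TPM, against 42.6 TPM after RARγi-1 and 30.6 TPM after RARγi-2. The order of control, RARγi-1 and RARγi-2 was the same in both lines, and the values lay close together, with log2 fold changes of -0.37 and -0.88 for PK-1 and of -0.38 and -0.85 for Panc-1. None of these reached 2-fold, and the PK-1 RARγi-1 value was within the spread.

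BTG2 encodes an antiproliferative protein that promotes mRNA deadenylation. It measured 12.2 TPM in PK-1 control, 19.3 TPM after RARγi-1 and 17.1 TPM after RARγi-2, which gives log2 fold changes of 0.62 and 0.45, both past the spread. In Panc-1 all 3 libraries lay close to the floor, between 1.74 and 2.07 TPM.

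The genes linked to cell death did not share a direction. FAS encodes the death receptor CD95. It measured 17.4 TPM in PK-1 control, 14.4 TPM after RARγi-1 and 6.0 TPM after RARγi-2. In Panc-1 it measured 1.89 TPM in control and 1.5 TPM with RARγi-1, and it was at the floor with RARγi-2. Only the RARγi-2 library of PK-1 was past 2-fold, where FAS fell 2.63-fold. The log2 fold changes of FAS were -0.26 (RARγi-1) and -1.40 (RARγi-2) for PK-1 and -0.21 and -0.53 for Panc-1, the last of which is limited by the floor.

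TP53I3 encodes an oxidoreductase also known as PIG3, which is linked to reactive oxygen species. In PK-1 it measured 53.8 TPM in control, 58.4 TPM after RARγi-1 and 112 TPM after RARγi-2. In Panc-1 it measured 47.6 TPM in control, 42.0 TPM after RARγi-1 and 48.3 TPM after RARγi-2. The PK-1 RARγi-2 library stood alone, 2.07-fold above control, while the other 3 log2 fold changes lay between -0.18 and 0.12, within the spread. ZMAT3, an RNA-binding zinc finger gene that regulates splicing and mRNA stability, was low in every library, between 3.91 and 5.82 TPM. Its log2 fold changes ran from -0.36 to 0.36, and only that of Panc-1 RARγi-2, at -0.36, was past the spread.

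**Figure D2:**
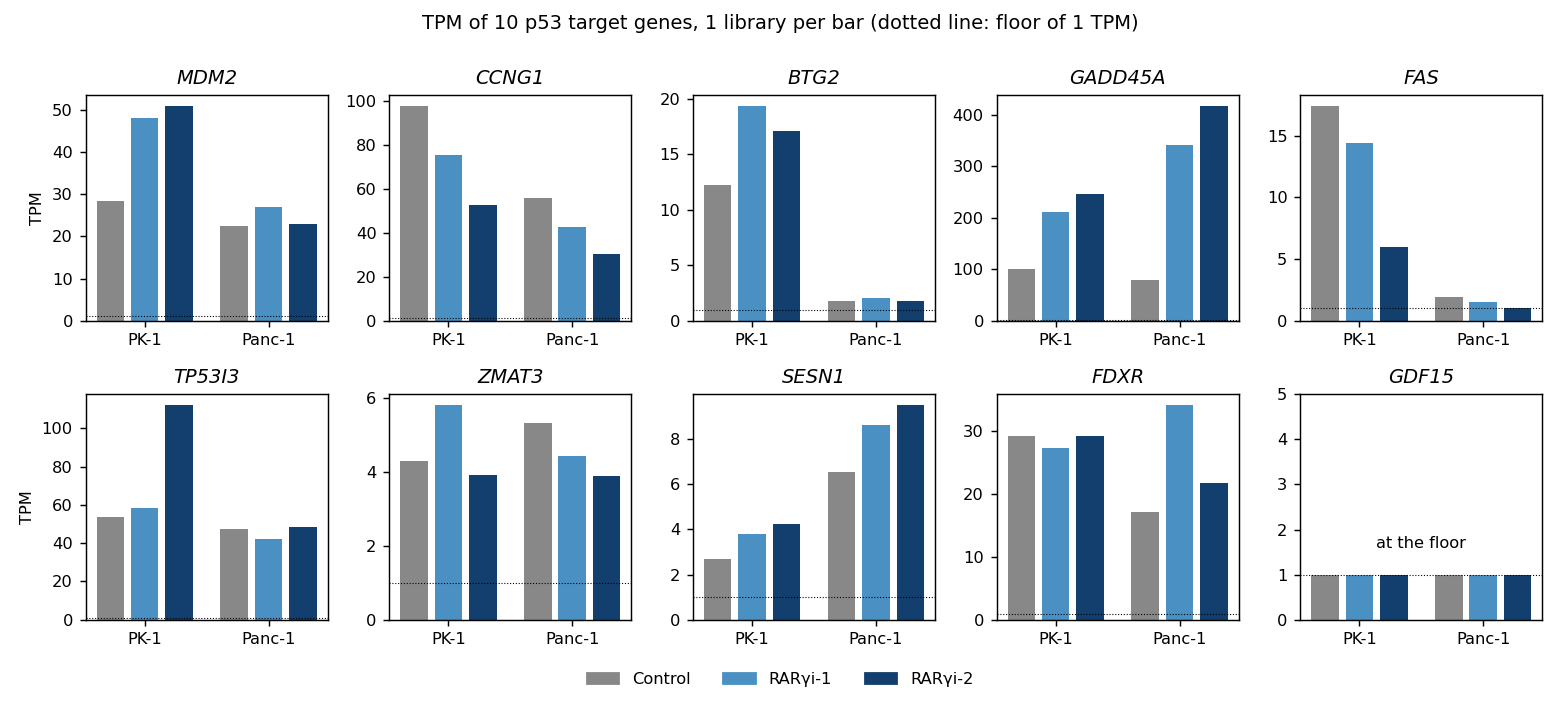
TPM of the 10 p53 target genes (y axis, from 0, own scale in each panel) in the control, RARγi-1 and RARγi-2 libraries of PK-1 and Panc-1, with 1 bar per library and no error bars because there are no replicates. GADD45A is higher and CCNG1 lower in all treated libraries than in the control of the line, and GDF15 is at the floor of 1 TPM throughout.

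Of the metabolic genes, SESN1 encodes sestrin 1, which restrains mTORC1 signaling and oxidative stress. It measured 2.69 TPM in PK-1 control, 3.78 TPM after RARγi-1 and 4.24 TPM after RARγi-2. The Panc-1 libraries gave 6.53 TPM in control, 8.59 TPM after RARγi-1 and 9.49 TPM after RARγi-2. All 4 treated libraries were above their control, with log2 fold changes of 0.37 and 0.50 for PK-1 and of 0.35 and 0.48 for Panc-1, of which PK-1 RARγi-1 was within the spread. The pseudocount weighs on a gene this low. In PK-1 SESN1 stayed under the 5 TPM required of the genes that set the spread.

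FDXR encodes ferredoxin reductase, which passes electrons to mitochondrial ferredoxins. It measured 29.3 TPM in PK-1 control, 27.4 TPM after RARγi-1 and 29.3 TPM after RARγi-2. For Panc-1 the values were 17.1 TPM in control, 34.2 TPM after RARγi-1 and 21.8 TPM after RARγi-2. The PK-1 libraries were almost level, and in Panc-1 the RARγi-1 library was the highest. There the log2 fold change was 0.96, and without a pseudocount it was just past 2-fold, whereas RARγi-2 gave 0.33.

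GDF15 encodes a secreted stress cytokine of the TGFβ family. It was listed at the floor in all 6 libraries, so no fold change is given. An entry for the microRNA gene MIR3189, looked up after the GDF15 values had been seen, lies in GRCh38 on chromosome 19 at 18386562 to 18386634, on the same strand inside GDF15 (18386158 to 18389176) and outside its GENCODE 29 exons. MIR3189 was listed at the floor for each control and for PK-1 RARγi-1, and measured 7.19 TPM in PK-1 RARγi-2, 10.4 TPM in Panc-1 RARγi-1 and 2.45 TPM in Panc-1 RARγi-2. How the authors' counting treated reads over this pair of entries was not tested, so the floor value of GDF15 is a listing and not evidence that the gene was silent.

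In the control libraries the 5 genes with the highest levels were the same in both lines, and the order below them differed. FAS and BTG2 stood above ZMAT3 and SESN1 in PK-1, and below them in Panc-1. GADD45A, CCNG1 and TP53I3 were the highest in that order in both. GADD45A and CCNG1 were only 0.03 (log2) apart in PK-1, and CCNG1 and TP53I3 only 0.23 apart in Panc-1. The spread compares the same gene between libraries, so it cannot say how firm this order of different genes is. FDXR and MDM2 followed in PK-1, 0.04 apart, and MDM2 and FDXR in Panc-1, 0.40 apart. The lines differed most in FAS, at 9.21-fold higher TPM in PK-1 control than in Panc-1 control, and in BTG2, at 6.80-fold. SESN1 was 2.43-fold higher in Panc-1. With 1 control library per line these are differences between libraries.

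The inhibitors share the control library of a line, so they were compared directly. In PK-1, FAS was 1.13 (log2) lower and TP53I3 0.93 higher with RARγi-2 than with RARγi-1, both past the spread of 0.41. CCNG1 was 0.51 lower in PK-1 and 0.47 lower in Panc-1, past the spread in each. FDXR was 0.63 lower with RARγi-2 in Panc-1, ZMAT3 was 0.47 lower in PK-1, and FAS in Panc-1 was 0.32 lower, level with the spread. In Panc-1 FAS stayed under the 5 TPM required of the genes that set that spread. For GADD45A the difference was 0.22 for PK-1 and 0.29 for Panc-1, and for MDM2 0.08 and -0.22, all within the spread. Since the doses are not stated, these are values side by side and not a comparison of potency.

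**Figure D3:**
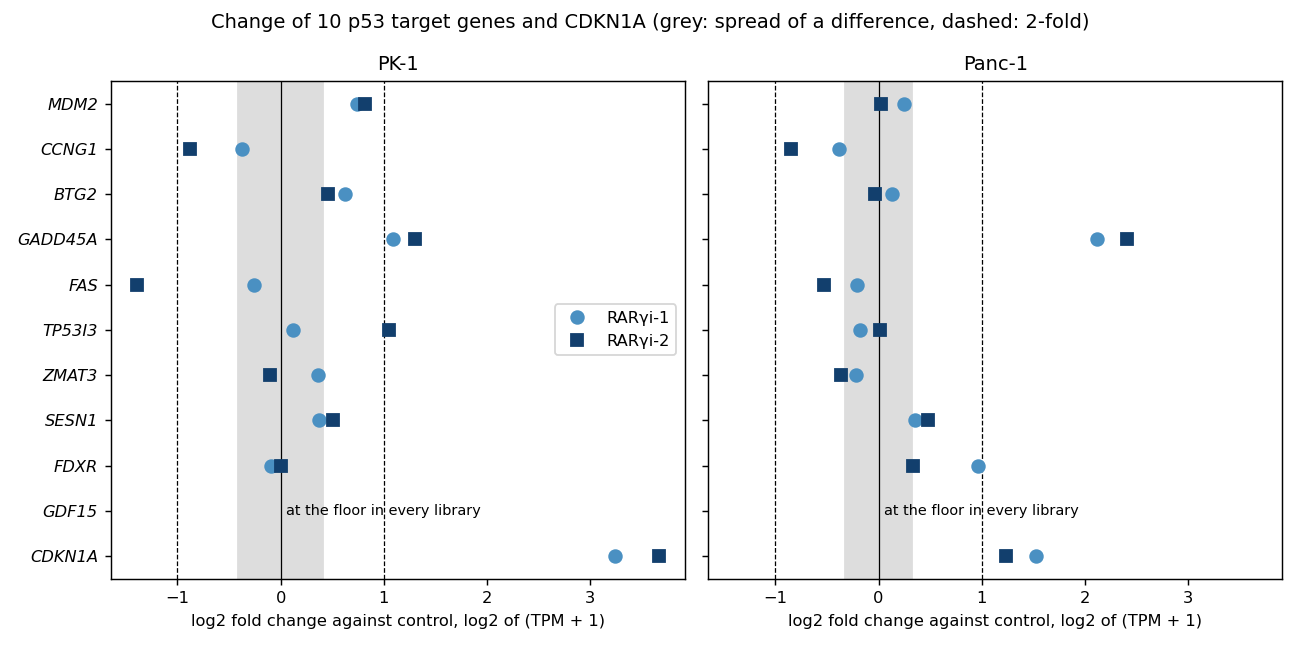
Log2 fold change (x axis) of the 10 p53 target genes and CDKN1A in the left panel (PK-1) and the right panel (Panc-1), with circles for RARγi-1 and squares for RARγi-2, a grey band for the spread of a difference and dashed lines at 2-fold. CDKN1A is at 3.24 and 3.66 on the left and at 1.53 and 1.24 on the right, GADD45A is past 2-fold in both panels, and most other symbols lie between the dashed lines.

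CDKN1A, which encodes the CDK inhibitor p21, rose in PK-1 from 36.1 TPM (control) to 349.9 TPM (RARγi-1) and 468 TPM (RARγi-2), and in Panc-1 from 86.1 TPM (control) to 249.8 TPM (RARγi-1) and 204 TPM (RARγi-2). Its log2 fold changes of 3.24 and 3.66 in PK-1 were larger than those of the 9 genes above the floor, whereas in Panc-1, at 1.53 and 1.24, GADD45A was above it.

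The pathway was followed with 29 further p53 targets. PK-1 expressed 26 of them above the floor and Panc-1 expressed 27. In PK-1, 8 were more than 2-fold higher and 3 lower with RARγi-1, and 9 were higher and 4 lower with RARγi-2. The shares of all tested PK-1 entries were 9.05% and 4.85% with RARγi-1, and 11.9% and 12.3% with RARγi-2. In Panc-1, 8 were higher and 2 lower with RARγi-1, and 8 were higher and 3 lower with RARγi-2. Of all tested Panc-1 entries, 7.30% were higher and 5.96% lower with RARγi-1, and 8.34% and 11.0% with RARγi-2. The median log2 fold change was 0.22 (RARγi-1) and 0.15 (RARγi-2) for PK-1 and 0.35 and 0.37 for Panc-1, beside 0.13, 0.01, 0.08 and -0.01 over all tested entries. SFN, SESN2, DDIT4 and TP53INP1 were more than 2-fold higher in all 4 comparisons, against 2.63% of all entries, and PIDD1 was more than 2-fold lower in all 4, against 2.13%. After rescaling by median ratios PIDD1 with RARγi-2 in Panc-1 was at -0.98 and no longer passed.

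SFN, the gene of the cell cycle inhibitor 14-3-3σ, rose in PK-1 from 755 TPM (control) to 2506 TPM (RARγi-1) and 2388 TPM (RARγi-2), and in Panc-1 from 121 TPM (control) to 844 TPM (RARγi-1) and 1404 TPM (RARγi-2). SESN2, a stress-induced paralog of SESN1, rose in PK-1 from 17.8 TPM (control) to 100.1 TPM (RARγi-1) and 165 TPM (RARγi-2), and in Panc-1 from 23.4 TPM (control) to 297 TPM (RARγi-1) and 301 TPM (RARγi-2). DDIT4, which encodes an inhibitor of mTORC1, rose in PK-1 from 415 TPM (control) to 1793 TPM (RARγi-1) and 1712 TPM (RARγi-2), and in Panc-1 from 118 TPM (control) to 1406 TPM (RARγi-1) and 1056 TPM (RARγi-2). The paralogs SESN1 and SESN2 thus differed in size of change, with log2 fold changes of SESN1 no higher than 0.50 and of SESN2 between 2.42 and 3.63. TP53INP1, an autophagy and stress gene, was at the floor in PK-1 control and at 5.02 and 4.47 TPM after treatment, and in Panc-1 it rose from 1.78 TPM to 5.76 and 5.83 TPM. PIDD1, the scaffold gene of the PIDDosome, fell in PK-1 from 8.24 TPM (control) to 3.36 TPM (RARγi-1) and 2.88 TPM (RARγi-2), and in Panc-1 from 50.4 TPM (control) to 22.6 TPM (RARγi-1) and 24.7 TPM (RARγi-2), where the value with RARγi-2 only just passed 2-fold.

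By role, counts are over few genes and are to be read beside the shares of all tested entries just given. In all, 3 of 4 growth arrest genes of this list (PLK3, SFN and TP53INP1) were past 2-fold higher in each PK-1 comparison. In each Panc-1 comparison 2 of 4 were (SFN and TP53INP1). TP53INP1, described above as an autophagy and stress gene, was counted under growth arrest here. PLK2 of the same role was lower in every comparison, with log2 fold changes from -0.72 to -2.09. Of the 3 feedback genes, RPS27L was just past 2-fold higher with RARγi-2 in PK-1 and the others stayed within 2-fold. Of the cell death genes above the floor, 2 of 8 were higher and 2 lower in each PK-1 comparison, and 3 of 10 were higher and 2 lower in each Panc-1 comparison. Among the 4 repair genes, XPC was higher and DDB2 lower than 2-fold in both PK-1 comparisons, and 0 passed in Panc-1. Of the metabolic genes, 2 of 7 were higher in PK-1 and 3 of 6 in Panc-1, with 0 lower.

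**Figure D4:**
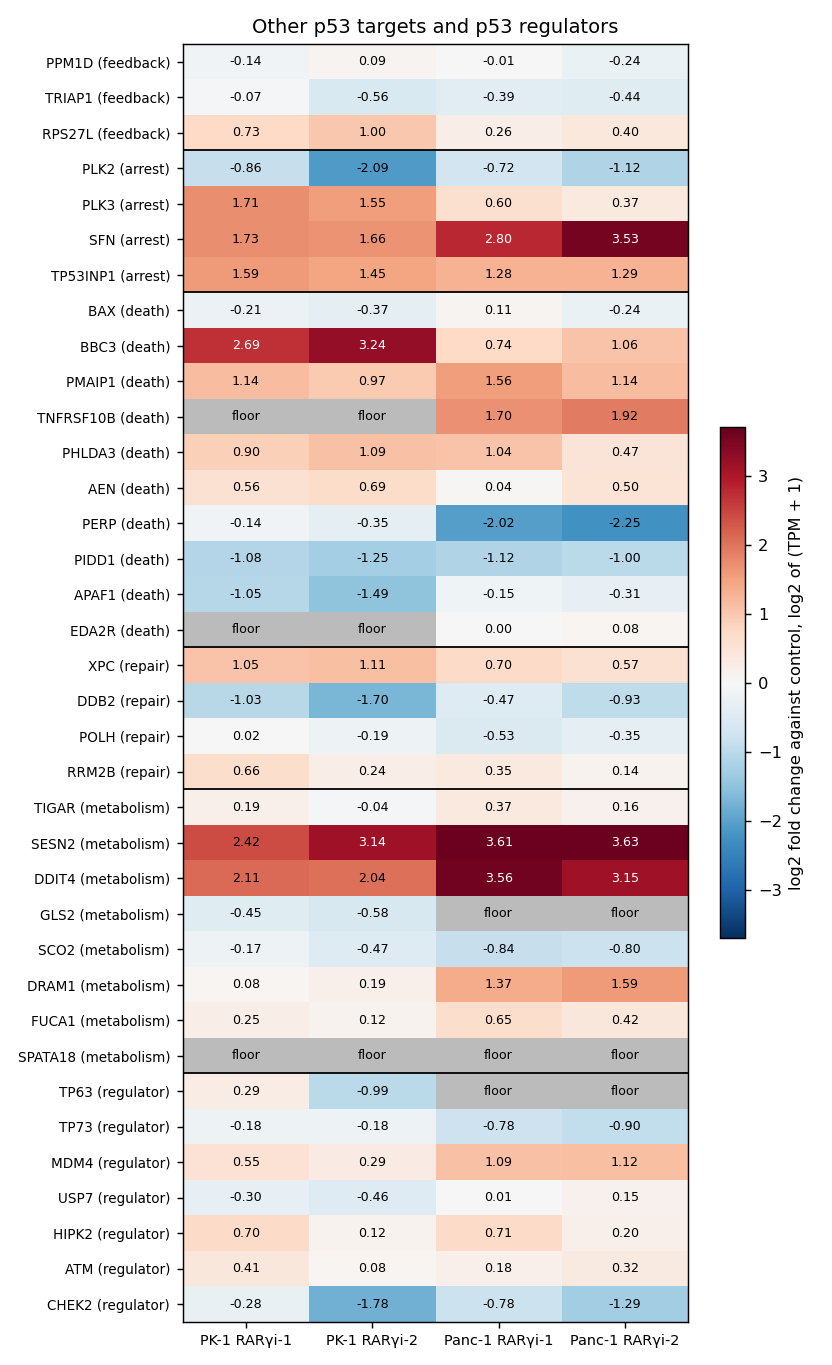
Log2 fold change of the 29 further p53 targets, grouped by role, and of 7 p53 regulators (rows) in the 4 comparisons (columns), with red for higher and blue for lower than control and grey where every library of the line is at the floor. SESN2, DDIT4 and SFN are red in all columns, and every role also has pale or blue rows.

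The p53 targets were also divided by whether ATF4 or CHOP is known to induce them, a grouping made with earlier results of these data known, so that its counts and medians are a description and no independent support for any input. The 7 genes with this second input were GADD45A, GDF15, SESN2, DDIT4, BBC3, PMAIP1 and TNFRSF10B. PK-1 expressed 5 of them above the floor and Panc-1 expressed 6. In PK-1, 5 of 5 were more than 2-fold higher with RARγi-1 (9.05% of all tested entries) and 4 of 5 with RARγi-2 (11.9%). After rescaling by median ratios the RARγi-1 count was 3 of 5, with GADD45A at 0.94 and PMAIP1 just under 2-fold. In Panc-1, 5 of 6 were higher with RARγi-1 (7.30% of all tested entries) and 6 of 6 with RARγi-2 (8.34%). The median log2 fold change was 2.11 (RARγi-1) and 2.04 (RARγi-2) for PK-1, and 1.91 and 2.16 for Panc-1.

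The other 32 p53 targets, 30 of them above the floor in each line, had a median log2 fold change of 0.10 and 0.05 for PK-1 and of 0.07 and 0.02 for Panc-1. In PK-1, 4 of the 30 were more than 2-fold higher and 3 lower with RARγi-1, and 7 were higher and 5 lower with RARγi-2. All tested PK-1 entries had 9.05% higher and 4.85% lower with RARγi-1, and 11.9% and 12.3% with RARγi-2. In Panc-1, 4 were higher and 2 lower with RARγi-1, and 3 were higher and 3 lower with RARγi-2. The shares there were 7.30% and 5.96%, and 8.34% and 11.0%.

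MDM4, which encodes the MDM2 relative that blocks p53 activity, was more than 2-fold higher with both inhibitors in Panc-1, from 8.54 TPM to 19.3 and 19.7 TPM. Its PK-1 log2 fold changes were 0.55 and 0.29. Of the 7 regulators followed, 0 were past 2-fold in either direction in all 4 comparisons.

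Among 9911 gene symbols that reached 5 TPM in some library of each line, the changes most like those of GADD45A over the 4 comparisons were those of IRF5, the microRNA entry MIR635 and FYN. Their root mean square differences from GADD45A were 0.15, 0.16 and 0.19 (log2). MIR635 measured only 1.13 TPM in Panc-1 control, near the floor, where the pseudocount weighs on its fold changes. What a microRNA entry measures in these mRNA libraries was not tested. IRF5 measured 11.2 TPM in PK-1 control, 23.8 TPM after RARγi-1 and 31.3 TPM after RARγi-2, and in Panc-1 2.42 TPM in control, 12 TPM after RARγi-1 and 14.7 TPM after RARγi-2. The inhibitors share the control of each line, so the 4 values are not independent.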

How the data were processed

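Stranded mRNA libraries of 6 conditions were analysed, with 1 library each. The authors deposited log2 values of TPM in which values under 1 TPM were set to that floor, as read from the values. The submitters' processing notes name the build hg38. The aligner, the counting method and the annotation are not given in the sources used here. TPM keeps no read number, so depth is unknown and counting error cannot be computed.

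The deposited log2 values were converted to TPM with Python 3.11.15, pandas 2.3.3 and numpy 2.4.6. Log2 fold changes used a pseudocount of 1 TPM. The call was a 2-fold difference, with no test. For a repeated symbol (113 symbols, none of them of the 10 genes) the entry with the highest mean was kept. Alternatives were rescaling by median ratios, no pseudocount, thresholds of 1.5-fold and 3-fold, a minimum of 5 TPM, and summing repeated symbols. Calculations were tested on simulated libraries with large planted changes in well expressed entries, which does not cover genes near the floor or changes near 2-fold. All 10 genes, CDKN1A, MDM4 and the further p53 targets past 2-fold in one direction throughout that reached 5 TPM were named by rule, as were the 3 entries closest to a gene of the group past 2-fold in all 4. Other genes were named after their values were seen. The genes and lists were chosen with earlier results of these data known. A further regulator of the rule is not reported here.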

Additional observations from a re-analysis of the deposited data

Results flagged for a closer look

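USP7, which encodes a deubiquitinase of MDM2 and p53, was lower than control with both inhibitors in PK-1 (log2 fold change -0.30 for RARγi-1 and -0.46 for RARγi-2) and higher with both in Panc-1 (0.015 and 0.15). The opposite signs drew attention to it. The difference between the lines was not tested, and only the PK-1 RARγi-2 value was past the spread.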

How the results depend on the processing

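Without replicates, a library cannot be left out, and every value rests on 1 treated and 1 control library. With a minimum of 5 TPM the median log2 fold change over the genes left was 0.24 (RARγi-1) and 0.23 (RARγi-2) for PK-1, in place of 0.36 and 0.45 over 9 genes, and 0.24 and 0.03 for Panc-1, in place of 0.14 and 0.02. None of the values of the 10 genes past 2-fold changed sign. After rescaling by median ratios, 0 of the genes were more than 2-fold higher with RARγi-1 in PK-1 and 0 in all 4 comparisons, since GADD45A was at 0.94, and TP53I3 with RARγi-1 in PK-1 was at -0.02 in place of 0.12. The same rescaling, applied after seeing the data, left 3 of the targets also induced by ATF4 or CHOP higher with RARγi-1 in PK-1, and 0 further targets lower in all 4 comparisons. Without a pseudocount, 2 genes were higher with RARγi-1 in Panc-1, FDXR being added, and FAS with RARγi-2 in Panc-1 was at -0.92. A 1.5-fold threshold gave 3 genes higher with RARγi-1 and 2 lower with RARγi-2 in PK-1, and 2 higher with RARγi-1 and 1 lower with RARγi-2 in Panc-1. A 3-fold threshold gave 0 genes higher with either inhibitor and 0 lower with RARγi-2 in PK-1, and 0 higher in all 4. Of the further targets, the 1.5-fold threshold gave 4 lower with RARγi-1 and 5 with RARγi-2 in Panc-1. The 3-fold threshold gave, in PK-1, 0 lower with RARγi-1, and 4 higher and 2 lower with RARγi-2. In Panc-1 it gave 4 higher and 1 lower with RARγi-1, and 5 higher and 1 lower with RARγi-2. A minimum of 5 TPM moved none of the counts of the 10 genes or of the further targets by more than 1.5 times, and summing repeated symbols, run for the 10 genes, moved none of theirs.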

Other observations

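The further p53 targets TNFRSF10B, BBC3 and PERP and the regulators TP63 and CHEK2 were picked after their values were seen. TNFRSF10B, the gene of the death receptor DR5, was at the floor in all PK-1 libraries and rose in Panc-1 from 31.9 TPM (control) to 106 TPM (RARγi-1) and 124 TPM (RARγi-2). BBC3, which encodes the BH3-only protein PUMA, rose in PK-1 from 3.39 TPM (control) to 27.4 TPM (RARγi-1) and 40.5 TPM (RARγi-2). In Panc-1 its values in the same order were 6.74, 11.9 and 15.1 TPM. PERP, a desmosomal and apoptosis gene, measured 215, 195 and 168 TPM in PK-1 and fell in Panc-1 from 272 TPM (control) to 66.1 TPM (RARγi-1) and 56.3 TPM (RARγi-2). TP63, a p53 family gene of squamous epithelia, was at the floor in Panc-1, and in PK-1 measured 29.7 TPM (control), 36.5 TPM (RARγi-1) and 14.4 TPM (RARγi-2). Differences between the lines were not tested. CHEK2, the gene of a kinase that acts on p53, measured 26.5 TPM (control), 21.6 TPM (RARγi-1) and 7.01 TPM (RARγi-2) in PK-1, and 39.9, 22.8 and 15.7 TPM in Panc-1, past 2-fold lower with RARγi-2 in both lines.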
